A study of Mus musculus with 4 samples.

Results

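The 10 genes described here encode the chains of the T-cell receptor, the coreceptors that split T-cells into lineages, and a pair of transcription factors of the T-cell lineage, and they were followed in popliteal lymph nodes (PLNs), the nodes that drain the mouse ankle. They were chosen by name, 10 of 32287 measured features, and are Trac and Trbc2 (receptor constant regions), Cd3d, Cd3e and Cd3g (CD3 chains), Cd4, Cd8a and Cd8b1 (coreceptors), and Lef1 and Tcf7 (transcription factors). PLNs of male C57BL/6 mice lay on 4 Visium capture areas, which count transcripts by unique molecular identifiers (UMIs) in barcoded spots, each a small region of tissue that can hold several cells. The wild-type (WT) area held 10 PLNs of 5 mice aged 5.5 months. The Early area held 6 PLNs of 3 TNF-transgenic (TNF-Tg) mice at 5.5 months, and Advanced areas 1 and 2 each held 6 PLNs of 3 TNF-Tg mice at 8.5 to 9 months. TNF-Tg mice carry a human TNF transgene and develop inflammatory-erosive arthritis. The authors grouped them as Early or Advanced by age, and describe collapse of the PLNs as common at the Advanced age. The groups thus rest on age rather than on the state of each node. Only males were used, each area is 1 frozen section through a block of several animals, and the transgene itself was not analysed here. WT and Advanced differ in genotype and age, and Early and Advanced in age and stage, so these cannot be told apart.

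The T-cell receptor is an alpha and a beta chain that bind the peptide-MHC complex, held with CD3 chains that carry the signal into the cell. CD4 marks helper T-cells and binds MHC class II, and CD8, a pair of an alpha and a beta chain, marks cytotoxic T-cells and binds MHC class I. TCF1, the product of Tcf7, and LEF1 are related transcription factors needed for T-cell development and kept high in naive T-cells. In a lymph node, T-cells fill the paracortex, where stromal cells make the chemokines CCL19 and CCL21, while B-cells fill the follicles under the capsule and macrophages line the sinuses. Cd4 is not specific to T-cells in the mouse, since some dendritic cells and macrophages also transcribe it, and some dendritic cells transcribe Cd8a without Cd8b1.

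The genes of the 3 CD3 chains are neighbours on chromosome 9 of GRCm38. Cd3g (ENSMUSG00000002033) runs on the minus strand from 44969572 to 44980431, Cd3d (ENSMUSG00000032094) on the plus strand from 44981786 to 44987339, and Cd3e (ENSMUSG00000032093) on the minus strand from 44998740 to 45009627. Cd3g and Cd3d point away from each other with their starts 1355 bases apart. Their promoters are shown because these members share a locus yet, as described below, did not pass the same tests, and because Lef1 and Tcf7 are themselves members. Each is the RefSeq window on GRCm38.p6 of 250 bases before to 50 after the gene's start, read in the direction of transcription, with capitals marking the letters CTTTGA (TCF/LEF), TGTGGT (RUNX) or CAGGAA (ETS) on either strand.
Cd3d, chr9:44981536-44981835, plus strand: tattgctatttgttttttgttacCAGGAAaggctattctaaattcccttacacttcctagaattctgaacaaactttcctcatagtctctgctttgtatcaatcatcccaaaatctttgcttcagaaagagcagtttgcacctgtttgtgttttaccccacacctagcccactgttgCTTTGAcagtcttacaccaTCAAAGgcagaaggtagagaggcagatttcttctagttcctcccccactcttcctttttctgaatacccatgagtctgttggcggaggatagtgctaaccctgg
Cd3e, chr9:45009562-45009861, minus strand: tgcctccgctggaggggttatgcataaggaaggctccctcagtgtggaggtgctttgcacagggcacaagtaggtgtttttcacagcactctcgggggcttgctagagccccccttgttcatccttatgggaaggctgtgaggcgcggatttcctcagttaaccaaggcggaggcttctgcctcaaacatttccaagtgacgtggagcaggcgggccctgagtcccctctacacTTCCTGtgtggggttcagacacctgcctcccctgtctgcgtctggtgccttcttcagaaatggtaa
Cd3g, chr9:44980382-44980681, minus strand: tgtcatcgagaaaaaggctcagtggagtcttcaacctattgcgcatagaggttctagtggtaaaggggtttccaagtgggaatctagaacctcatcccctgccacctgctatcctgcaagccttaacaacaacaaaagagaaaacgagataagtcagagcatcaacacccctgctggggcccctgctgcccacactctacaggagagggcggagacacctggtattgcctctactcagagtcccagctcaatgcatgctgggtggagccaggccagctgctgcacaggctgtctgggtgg
The Cd3d window holds 2 TCF/LEF matches and 1 ETS match, the Cd3e window 1 ETS match and the Cd3g window none of the 3 motifs. Of 32851 promoter windows of this length, 16.0% hold the TCF/LEF letters, 16.8% the RUNX letters and 30.6% the ETS letters, so these matches are a description of the letters only.

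The coreceptor genes Cd8b1 (ENSMUSG00000053044, chromosome 6 from 71322788 to 71337494) and Cd8a (ENSMUSG00000053977, 71373427 to 71379173) follow each other on the plus strand, 35932 bases apart. Cd4 (ENSMUSG00000023274) lies on the minus strand of the same chromosome from 124864692 to 124888221, and Trbc2 (ENSMUSG00000076498) on its plus strand from 41546730 to 41548352. Trac (ENSMUSG00000076928) lies on chromosome 14 from 54220521 to 54224206, Lef1 (ENSMUSG00000027985) on chromosome 3 from 131110471 to 131224356, both on the plus strand, and Tcf7 (ENSMUSG00000000782) on the minus strand of chromosome 11 from 52252371 to 52283014. Trbc2 has a near-identical copy, Trbc1, with which it shared 203 of its 603 distinct transcript stretches of 90 bases (33.7%). Its counts are therefore uncertain, by an amount that was not measured. None of the other 9 members shared such a stretch with another gene.

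The areas held 833 to 2015 spots and 1808678 to 5180493 UMIs, and depth followed position. Rim spots, those with tissue on fewer than 6 sides, mark the edge of the tissue covered by spots. The WT and Advanced 1 areas were 1 connected piece each, so borders between neighbouring nodes there count as interior. Rim spots had median depths of 2113 to 5541 UMIs per area, against 140.5 to 250.5 for interior spots. Rim spots were 15.6% to 32.1% of the spots and held 47.9% to 79.3% of the UMIs. Interior spots of under 1000 UMIs were 53.0% to 65.2% of the spots, and whether they cover dense node tissue was not tested. Interior thus names a position within the covered tissue and not a region of the node. Levels are therefore given as UMIs per 10000, summed over the spots of an area, with exact Poisson 95% intervals that cover counting error only, and spots were never treated as replicates. In such sums, fewer T-cells and less RNA per T-cell cannot be told apart.

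WT PLNs gave the highest levels of the receptor genes, and Early PLNs the lowest. Summed over the 5 CD3 and receptor constant genes, the level was 7.78 per 10000 on the WT area (7.38 to 8.20), 4.23 on the Early area (4.06 to 4.41), 5.08 on Advanced 1 (4.84 to 5.33) and 5.47 on Advanced 2 (5.22 to 5.73). The 2 Advanced intervals overlapped, and every other pair of areas was separate. Trac, the alpha constant region, had 1.92 UMIs per 10000 on the WT area, 0.874 on Early, 1.17 on Advanced 1 and 1.01 on Advanced 2. Trbc2, the beta constant region, followed the same order at its top and bottom, with 2.71, 1.83, 2.00 and 2.21. WT was the high area for both genes.

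Cd3e, the CD3 chain most used to mark T-cells, had 1.11 per 10000 on the WT area, 0.450 on Early, 0.619 on Advanced 1 and 0.647 on Advanced 2. On the same areas in turn Cd3d had 1.26, 0.610, 0.764 and 1.01, and Cd3g 0.780, 0.467, 0.533 and 0.588. All 3 chains were highest on the WT area and lowest on the Early area. The coreceptors did not share this order. Cd4 had 1.19 per 10000 on the WT area, 1.71 on Early, 1.43 on Advanced 1 and 1.86 on Advanced 2, so WT was the low area. Cd8a had 0.879, 0.654, 0.867 and 0.675, and Cd8b1 0.857, 0.542, 0.814 and 0.578, with WT and Advanced 1 high and Early and Advanced 2 low for both CD8 chains. Lef1 had 0.365, 0.205, 0.287 and 0.347, and Tcf7 0.437, 0.380, 0.346 and 0.360. Both factors were highest on WT.

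**Figure D1:**
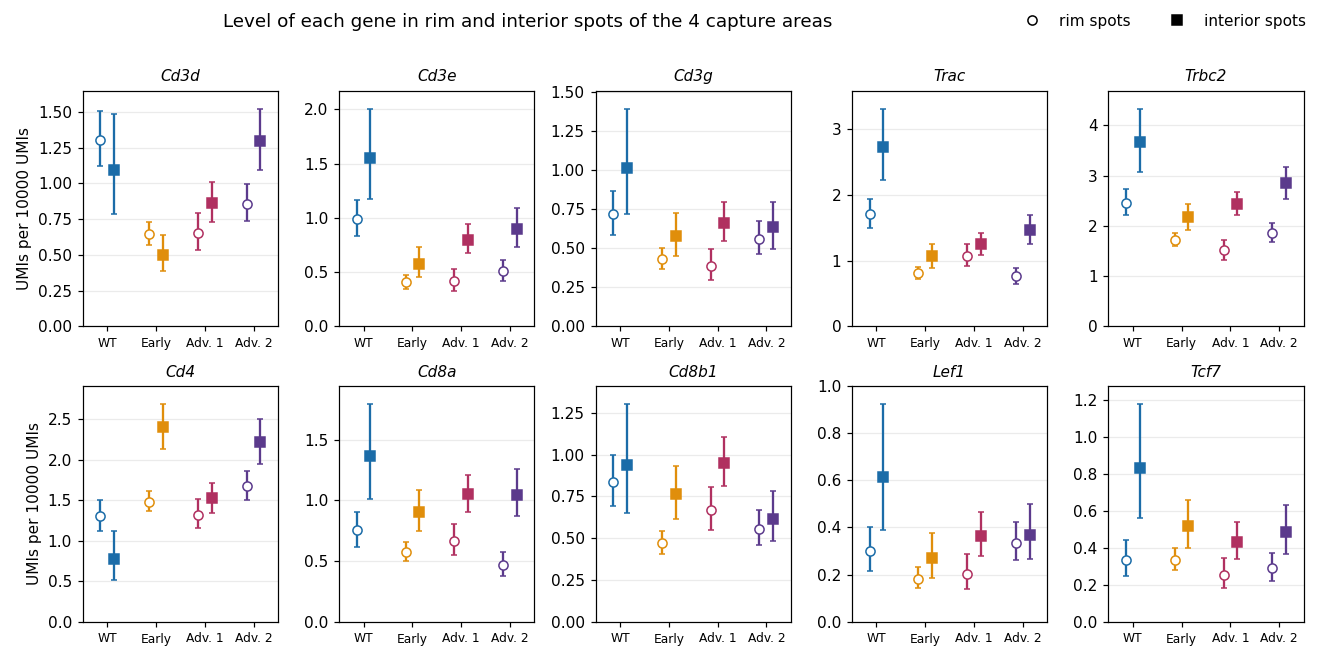
Level of each of the 10 genes in UMIs per 10000 (vertical axes from 0) in rim and interior spots of the WT, Early, Advanced 1 and Advanced 2 areas, with bars for the exact Poisson 95% interval of each sum. Interior levels lie above rim levels on all 4 areas for 8 genes, while Cd4 on the WT area (0.776 interior, 1.30 rim) and Cd3d on the WT and Early areas lie the other way.

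The comparison of rim with interior sets the edge of the covered tissue against the spots within it, and 5 of the 10 members were higher in interior spots. Cd3e rose from 0.990 per 10000 in the rim to 1.55 in the interior on the WT area, from 0.408 to 0.580 on Early, from 0.420 to 0.801 on Advanced 1 and from 0.509 to 0.899 on Advanced 2. All 4 interior values lay above the rim value of their own area, though the WT rim lay above 3 of the interiors. With counts summed per area and the area as a block, the log2 difference of interior over rim was 0.64 (SE 0.13, adjusted p = 0.00314, quasi-likelihood test of edgeR, p-values adjusted by Benjamini-Hochberg across 10998 genes). Cd8a, the CD8 alpha chain, had rim values of 0.753, 0.574, 0.668 and 0.470 on WT, Early, Advanced 1 and Advanced 2 and interior values of 1.36, 0.906, 1.05 and 1.05. The 2 sets of values did not overlap, and the log2 difference was 0.73 (SE 0.13, adjusted p = 0.000856, same edgeR test). Tcf7 had rim values of 0.335, 0.337, 0.253 and 0.291 and interior values of 0.830, 0.516, 0.432 and 0.485, which did not overlap either, with a log2 difference of 0.72 (SE 0.16, adjusted p = 0.00689, same edgeR test).

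Trbc2 had 2.47, 1.72, 1.51 and 1.86 per 10000 in the rim and 3.67, 2.17, 2.44 and 2.85 in the interior, and Trac 1.71, 0.813, 1.08 and 0.766 in the rim and 2.73, 1.06, 1.25 and 1.46 in the interior. Both were higher inside on 4 of 4 areas, with WT highest in each region. Their log2 differences were 0.47 (SE 0.11, adjusted p = 0.00827) for Trbc2 and 0.46 (SE 0.12, adjusted p = 0.0227) for Trac by the same edgeR test. In all, 5 of the 10 members passed, all 5 higher in the interior, where 8.04% of the genes tested passed in all, 3.75% higher and 4.29% lower. The median log2 difference was 0.46 over the members and 0.00 over all genes tested.

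The other 5 members did not pass. Cd3g (0.38, adjusted p = 0.105, same edgeR test), Cd8b1 (0.33, adjusted p = 0.141) and Lef1 (0.52, adjusted p = 0.0958) were higher inside on 4 of 4 areas. Cd3d had a log2 difference of 0.07 (SE 0.15, adjusted p = 0.854), with rim values of 1.30, 0.645, 0.655 and 0.858 and interior values of 1.097, 0.501, 0.863 and 1.30 on WT, Early, Advanced 1 and Advanced 2. It was higher inside on the 2 Advanced areas and lower inside on WT and Early, unlike its neighbours Cd3e and Cd3g. Cd4 had a log2 difference of 0.20 (SE 0.14, adjusted p = 0.467), with the interior higher on 3 of 4 areas. Without the WT area it was 0.36 and passed (adjusted p = 0.0254, edgeR). Without Advanced 2 the calls of Trac (adjusted p = 0.258) and Trbc2 (0.0983) were lost, without Advanced 1 that of Trbc2 (0.0608) and without Early that of Trac (0.0545). With a rim of 2 rings Tcf7 no longer passed (0.54, adjusted p = 0.119) while Cd3g (0.54), Cd8b1 (0.53) and Lef1 (0.86) did, and DESeq2 did not call Trac (adjusted p = 0.0781). Without the area as a block none of the 10 members passed, where 159 genes passed in all.

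**Figure D2:**
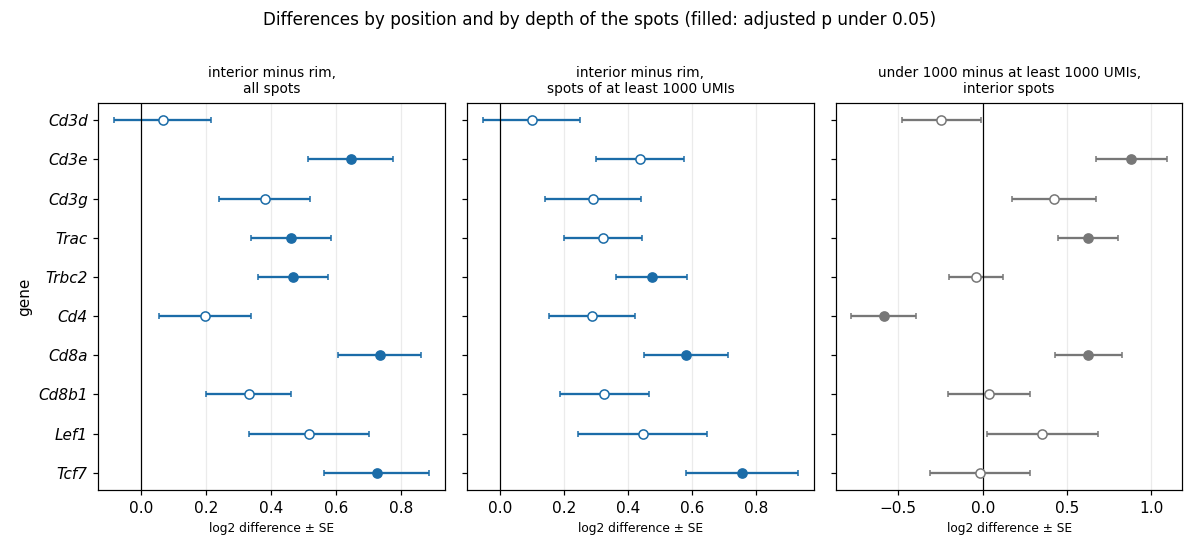
Log2 difference (horizontal axes, bars 1 standard error) for each of the 10 genes, from edgeR fits with the capture area as a block, of interior minus rim over all spots and over spots of at least 1000 UMIs, and of shallow minus deep interior spots, with filled points at an adjusted p under 0.05. In the comparison over all spots the estimates lie between 0.07 (Cd3d) and 0.73 (Cd8a).

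Since rim and interior differ so much in depth, spots under and over 1000 UMIs were also compared apart. In spots of at least 1000 UMIs, Trbc2 was 0.47 higher in the interior on the log2 scale (SE 0.11, adjusted p = 0.0130), Cd8a 0.58 higher (SE 0.13, adjusted p = 0.0111) and Tcf7 0.76 higher (SE 0.18, adjusted p = 0.0130), by edgeR's quasi-likelihood test over 10867 genes. These 3 of 10 passed, against 1.51% of genes higher, and without either Advanced area none of the 10 did. Without Early the Cd8a call was lost (adjusted p = 0.0693, edgeR), and with a rim of 2 rings those of Cd8a (0.40, adjusted p = 0.241) and Tcf7 (0.48, adjusted p = 0.295) were. Cd3e (0.44, adjusted p = 0.0777) and Trac (0.32, adjusted p = 0.160) kept their sign but did not pass. In spots under 1000 UMIs only Trac and Trbc2 had enough counts to be tested. Their log2 differences were 1.63 (adjusted p = 0.0418) and 1.27 (adjusted p = 0.0461, edgeR over 1295 genes, of which 2.63% passed and 1.47% were higher), but shallow rim spots held at most 8 UMIs of any member on an area, and both calls were lost without Early or either Advanced area.

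Whether the rim to interior difference itself depended on depth was tested as an interaction. None of the 10 members, and 0 of 6924 genes (0% called), passed with edgeR, where 5 members and 473 genes had an unadjusted p under 0.05 and DESeq2 called 2 genes, no member among them. The median of the interaction was 0.90 over the members and 0.11 over all genes tested.

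Within the interior, shallow spots held more Cd3e, Trac and Cd8a and less Cd4 per UMI than deep ones. Cd4 had 0.649 per 10000 in shallow and 0.818 in deep interior spots on the WT area, 1.20 and 2.55 on Early, 1.03 and 1.62 on Advanced 1, and 1.88 and 2.31 on Advanced 2. It was lower in the shallow spots on 4 of 4 areas, with a log2 difference of -0.59 (SE 0.19, adjusted p = 0.0142, edgeR over 5888 genes). Cd3e went the other way, with 1.95 and 1.42 on WT, 0.921 and 0.537 on Early, 1.46 and 0.665 on Advanced 1, and 1.43 and 0.737 on Advanced 2. It was higher in shallow spots on 4 of 4 areas, by 0.88 on the log2 scale (SE 0.21, adjusted p = 0.000286, same edgeR test). Trac (0.62, adjusted p = 0.00350) and Cd8a (0.63, adjusted p = 0.0104) were also higher, so 3 members rose and 1 fell in a comparison where 23.0% of genes passed, 13.2% higher and 9.83% lower. Over rim and interior together the same 4 members passed, Cd3e (0.95), Trac (0.69) and Cd8a (0.84) higher and Cd4 (-0.50) lower, against 12.2% and 9.61% of genes. This Cd4 call was lost without WT (adjusted p = 0.0878), Early (0.133) or Advanced 1 (0.145), with DESeq2 (0.0925) and at a threshold of 500 UMIs (0.0526). The Cd4 call within the interior was lost without Early (adjusted p = 0.139) or Advanced 1 (0.122), and the Cd8a call without WT (0.0716) or Advanced 2 (0.0687). DESeq2 called Cd3e within the interior (adjusted p = 0.0261) but not Trac (0.0591), Cd4 (0.150) or Cd8a (0.106). The Cd8a call was also lost at a threshold of 500 UMIs (0.288) and without a filter on low counts (0.0797), and the Trac call at 2000 UMIs (0.0762).

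Markers of other cells moved with depth in the same interior spots. All 9 tested genes of a macrophage list (Marco, Csf1r, the C1q chains and others) were lower in shallow spots, with a median of -1.08, and 6 of 9 B-cell genes were higher, with a median of 0.58. Their part in the member differences was not tested.

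The balance of CD4 to CD8 genes was described as the Cd4 share of the UMIs of Cd4, Cd8a and Cd8b1, with exact binomial 95% intervals. Over all spots it was 40.8% on the WT area (36.5 to 45.1), 58.8% on Early (56.2 to 61.3), 45.9% on Advanced 1 (42.9 to 49.0) and 59.8% on Advanced 2 (56.7 to 62.8). WT and Advanced 1 overlapped, Early and Advanced 2 overlapped, and the 2 pairs were apart, so the intervals of the 2 Advanced areas lay apart. In interior spots the share was 25.2% on WT, 59.0% on Early, 43.2% on Advanced 1 and 57.0% on Advanced 2, and in rim spots 45.1%, 58.7%, 49.8% and 61.9%. The rim and interior shares thus lay far apart on the WT area and within 7 percentage points on the others. In spots under 1000 UMIs the shares were 17.9%, 35.8%, 33.0% and 47.5%, and in spots of at least 1000 UMIs 42.6%, 59.6%, 47.3% and 61.5%, lower in the shallow spots on 4 of 4 areas. The ratio of Cd8b1 to Cd8a UMIs, the chains of the CD8 pair, was 0.975, 0.829, 0.939 and 0.856 over all spots of WT, Early, Advanced 1 and Advanced 2. It was 1.11, 0.822, 1.00 and 1.19 in the rim and 0.686, 0.842, 0.903 and 0.588 in the interior.

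Cd4 was low in the interior of the WT area. Interior Cd4 was 0.776 per 10000 on WT, 2.40 on Early, 1.52 on Advanced 1 and 2.21 on Advanced 2, with all 3 TNF-Tg areas above WT and their intervals apart from it. Rim Cd4 was 1.30, 1.48, 1.32 and 1.67. The interior to rim ratio on the log2 scale was therefore below 0 on WT alone and above 0 on each TNF-Tg area. A test of this difference of differences, added after the data had been seen, gave 1.19 (SE 0.31, adjusted p = 0.134, edgeR over 10998 genes), which did not pass. It passed without Advanced 1 (1.29, adjusted p = 0.00638). None of the 10 members passed, against 0.264% of genes in either direction and 0.0636% of genes lower. Of the members 1 (Cd4) had an unadjusted p under 0.05 with edgeR, where 1125 of 10998 genes did, and DESeq2 gave no adjusted p for any of the 10.

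Ring by ring, the summed receptor genes had higher levels in the deepest ring of at least 20000 UMIs than at the rim on every area, described here without a test. Ring 1 is the rim, each further ring lies 1 spot deeper, and on WT ring 4 is the deepest of that depth. The 5 CD3 and receptor constant genes had 7.18, 9.51, 12.4 and 10.7 per 10000 in rings 1 to 4 of the WT area, where the intervals of rings 1 and 4 overlapped. Median depth per spot in these rings was 3166, 318, 124 and 57 UMIs, and ring 4 rests on 25 UMIs of these genes. Ring 1 had the highest median depth on the TNF-Tg areas too, so position and depth cannot be told apart in these profiles. Below that depth, WT ring 5 had 4.93 from 6 UMIs (1.81 to 10.7), and ring 6 had 0 of 394 UMIs. On the TNF-Tg areas they went from 4.02 in ring 1 to 9.78 in ring 7 and deeper on Early, with 3.69 in ring 2, from 4.06 to 7.15 in ring 5 and then 6.21 and 5.98 in rings 6 and 7 on Advanced 1, and from 4.55 to 10.1 in ring 7 and deeper on Advanced 2. Cd4 on the WT area went the other way, with 1.30, 0.861 and 0.851 in rings 1 to 3 and 0 of 23443 UMIs in ring 4, an interval that reaches 1.57. A B-cell list of 9 genes was lower inward on the 3 TNF-Tg areas, from 44.1 to 21.5 on Early, 39.6 to 29.6 on Advanced 1 and 37.2 to 15.2 on Advanced 2, while on WT it lay between 21.8 and 25.2 in rings 1 to 4.

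**Figure D3:**
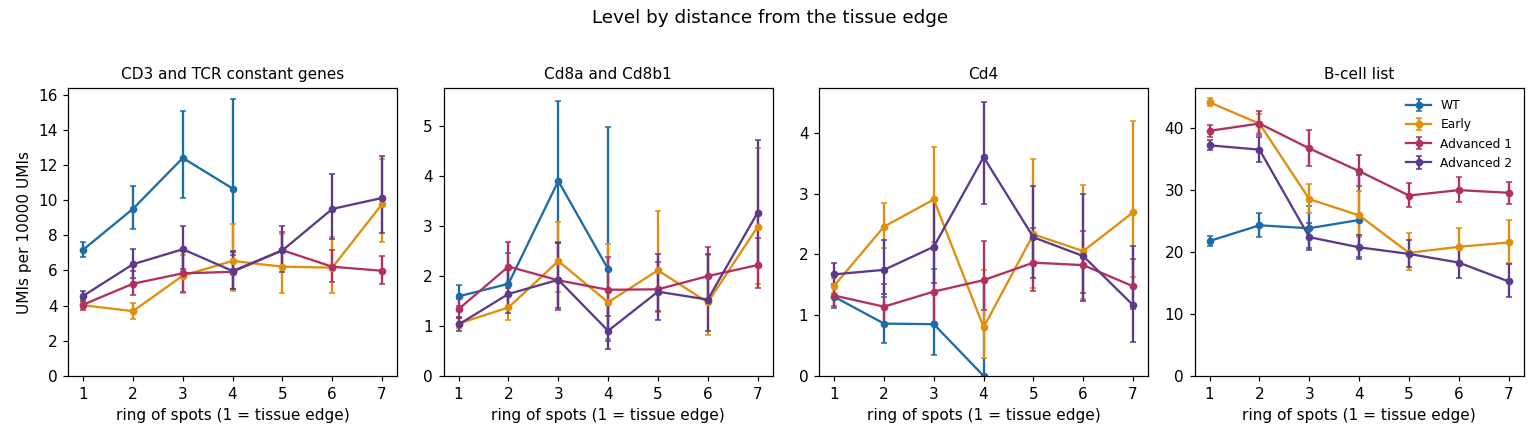
UMIs per 10000 (vertical axes from 0) by ring of spots from the tissue edge (ring 1 is the edge, ring 7 includes deeper spots) on the 4 areas, for rings of at least 20000 UMIs, with exact Poisson 95% intervals. CD3 and receptor constant genes lie above their ring 1 level in the deepest ring plotted on each area, with 12.4 in ring 3 of the WT area, 5.98 in ring 7 of Advanced 1 and 10.1 in ring 7 of Advanced 2, while Cd4 on the WT area goes from 1.30 to 0. Depth differs between rings, with a median of 3166 UMIs per spot in ring 1 of WT and 57 in ring 4.

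The comparisons between areas ask how the T-cell genes differ with disease stage. Only Advanced had 2 areas, so their spread, with 1 residual degree of freedom, stood for that of WT and Early as well. The edgeR fit drew the spread of each gene towards a value shared by all genes. A p-value therefore does not measure the spread of that gene between the 2 Advanced areas alone. Over the whole area Trac was lower in Advanced than WT PLNs by a log2 difference of -0.93 (SE 0.19, adjusted p = 0.000259) and Cd3e by -0.92 (SE 0.22, adjusted p = 0.00244), by edgeR's quasi-likelihood test over 13102 genes, and WT lay above both Advanced areas for each. These 2 of 10 members passed, against 1.34% of genes lower and 0.733% higher. Cd3d (-0.62, adjusted p = 0.105), Cd3g (-0.59, adjusted p = 0.229) and Trbc2 (-0.48, adjusted p = 0.198) had the same sign without passing, as did Cd8a (-0.30), Cd8b1 (-0.41), Lef1 (-0.32) and Tcf7 (-0.42). Cd4 alone had the opposite sign (0.35, adjusted p = 0.562). The median was -0.45 over the members and 0.01 over all genes tested. DESeq2 called neither gene (adjusted p = 0.485 for Trac and 1 for Cd3e).

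Split by region, Cd3e was lower in the Advanced rim (-1.18, SE 0.24, adjusted p = 0.0283, edgeR over 12092 genes), as 1 member of 10 against 1.04% of genes in either direction and 0.736% lower, and DESeq2 did not call it (adjusted p = 0.528). In the interior 6 members had an unadjusted p under 0.05 with edgeR, where 747 of 11409 genes did. None of the 10 passed after adjustment, against 0.351% of genes, and none by DESeq2. Trac came nearest (-1.09, SE 0.29, adjusted p = 0.0506, edgeR), and Cd4 had the largest positive difference (1.18, SE 0.36, adjusted p = 0.168).

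Between Advanced and Early PLNs none of the 10 members passed over the whole area with edgeR, where 1.16% of genes did. Of the members 2, Cd3d (0.46, adjusted p = 0.489) and Lef1 (0.55, adjusted p = 0.630), had an unadjusted p under 0.05 with edgeR, where 1007 of 13102 genes did. DESeq2 called none of the 10. The median was 0.21 over the members and 0.01 over all genes tested. In interior spots (0.316% of genes called) Cd3d had the largest difference, with 0.501 per 10000 on Early, 0.863 on Advanced 1 and 1.30 on Advanced 2, both Advanced areas above Early, and a log2 difference of 1.07 (SE 0.31, adjusted p = 0.110, edgeR). In rim spots (0.149% called, 0.116% higher and 0.0331% lower) none of the 10 passed or had an unadjusted p under 0.05, where 574 of 12092 genes had one with edgeR. DESeq2 called none of the 10 in either region.

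**Figure D4:**
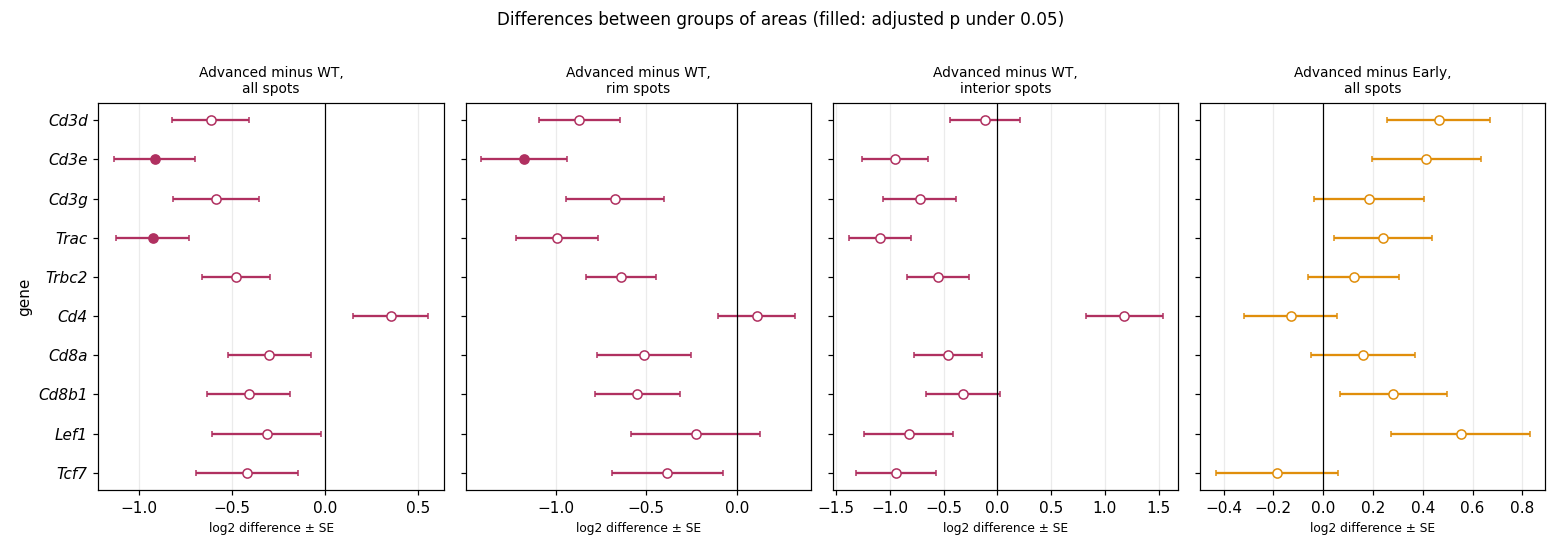
Log2 difference (horizontal axes, bars 1 standard error) for each of the 10 genes, of Advanced minus WT over all spots, rim spots and interior spots and of Advanced minus Early over all spots, from edgeR fits whose spread comes from the 2 Advanced areas and is shared across genes, with filled points at an adjusted p under 0.05. Against WT, 9 of 10 whole-area estimates lie below 0 and Cd4 lies at 0.35.

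Early and WT had 1 area each and were compared without a test. By counting intervals, 8 members were lower on the Early than the WT area, Cd4 was higher and Tcf7 overlapped, where the intervals of 14.3% of 13476 genes with at least 10 UMIs lay apart, 6.20% lower and 8.08% higher on Early. The log2 ratio of Early to WT was -0.88 for the 5 CD3 and receptor constant genes together, with -1.05 for Cd3d and 0.51 for Cd4. In the interior 5 members were lower, Cd4 was higher (log2 ratio 1.63) and 4 overlapped, against 5.84% of genes apart, 2.23% lower and 3.61% higher. In the rim 6 were lower and 4 overlapped, against 14.4% of genes apart, 6.70% lower and 7.67% higher. The counting intervals do not include the spread between mice or sections. They also narrow as counts rise, and many of the genes behind the all-gene shares had fewer UMIs than the members. Cd8b1, for example, had 155 UMIs on WT and 281 on Early over all spots. The all-gene shares are therefore not a like-for-like baseline for the member counts. Levels also differed between separate pieces of tissue on 1 area, which the labels do not tie to mice. The 4 pieces of the Early area had 5.35, 3.18, 2.36 and 2.97 UMIs of the 5 genes per 10000, the 2 pieces of Advanced 2 had 5.65 and 4.51, and the WT and Advanced 1 areas were 1 piece each. The highest Early piece lay between the pieces of Advanced 2, and all TNF-Tg pieces lay below the 7.62 of the WT piece. For Cd4 the Early pieces spanned 0.848 to 2.48, which covered the WT piece at 1.17.

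Other cell types differed between areas too. In Advanced against WT PLNs, 7 of 9 tested macrophage genes were lower (median -1.07, Adgre1 -1.82), 3 of 9 B-cell genes higher (median 0.44, Cr2 1.58), 4 of 4 hemoglobin genes higher (median 1.62), 3 of 5 lymphatic endothelial genes lower (median -0.70) and 2 of 8 fat and capsule genes lower. The summed macrophage list spanned 30.9 to 39.9 per 10000 on the Advanced areas against 59.4 on WT and 42.3 on Early, with Vsig4 at 0 UMIs on WT, Early and Advanced 1, and the B-cell list 33.0 to 36.3 against 22.3 and 41.6. The 5 CD3 and receptor constant genes took 25.9% of their UMIs together with the B-cell list on WT, 9.23% on Early, 12.3% on Advanced 1 and 14.2% on Advanced 2. The part of these cells in the member differences was not tested.

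The wider receptor pathway was followed through lists of other T-cell genes, again from rim to interior, where 3.75% of all genes tested were higher and 4.29% lower. Of 17 tested genes for receptor signalling, 4 were higher in the interior and none lower (median 0.40), namely Prkcq (0.79), the kinase PKC-theta, Cd5 (0.61), an inhibitory receptor, Lck (0.55), the kinase that phosphorylates CD3, and Lat (0.50), the adaptor below it. Cd247, the zeta chain of the receptor complex, had 0.33 (adjusted p = 0.196, edgeR) and Cd6, a receptor for ALCAM, 0.51 (adjusted p = 0.0918). Among 5 other receptor chains Trbc1, the second beta constant gene, was higher (0.49, adjusted p = 0.00791, edgeR), and it took 36.5% of the Trbc1 and Trbc2 UMIs on WT, 37.7% on Early, 38.6% on Advanced 1 and 39.5% on Advanced 2. Among 8 other T-cell transcription factors Bcl11b, which keeps T-cell identity, was higher (0.77) and Id3 lower (-0.44). In the naive and homing list 1 of 9 was higher (Ms4a4b, 0.72), while the homing receptor Ccr7 (0.24, adjusted p = 0.317) and the survival receptor Il7r (0.41, adjusted p = 0.0984, edgeR) did not pass.

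Most genes of T-cell subsets did not pass, and those that did were higher inside, against 3.75% of all genes tested. Foxp3, the factor of regulatory T-cells, had 0.87 (1 of 4 in its list), Cd27, a costimulatory receptor, 0.86 (1 of 8 helper and activation genes), and the cytotoxic and NK genes Ccl5 (0.93), Klrd1 (0.84) and Nkg7 (0.66) passed as 3 of 10. Between stages few genes of these lists passed. Against WT, 0 of 18 signalling genes passed over the whole area (median -0.30), 0 of 5 other receptor chains, 0 of 8 transcription factors, 0 of 4 regulatory, 0 of 9 helper and 0 of 13 cytotoxic genes, with Igfbp4 (-0.74) the only 1 of 9 homing genes to pass with edgeR. In that fit 12 of the 66 tested genes of these 7 lists had an unadjusted p under 0.05, where 1408 of all 13102 genes did. Against Early, Cd27 (0.87) and Ly6c2 (0.76) were the only genes of these 7 lists that passed with edgeR, where 1.16% of all genes did. There too 12 of the 66 tested genes had an unadjusted p under 0.05, where 1007 of all 13102 genes did. Cd6 had 0.420 per 10000 on WT, 0.251 on Early, 0.349 on Advanced 1 and 0.331 on Advanced 2, and passed against neither (adjusted p = 0.660 and 0.871, edgeR).

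The gene with the pattern most like the members was a T-zone chemokine. Over spots of at least 1000 UMIs, Ccl21a had the most similar pattern to the summed members among 3171 genes, with a Pearson r of 0.49 on WT, 0.31 on Early, 0.27 on Advanced 1 and 0.34 on Advanced 2, on log2 of UMIs per 10000 plus 1 across 273, 601, 579 and 604 spots. Ccl5 (mean r over the areas 0.25), Cxcl12 (0.24), Ccl19 (0.23) and Lat (0.21) followed, and no other gene exceeded 0.2. Ms4a4b, C3, Thy1, Ighg3, Il6st, Igfbp4, Apoe, Trbc1, Jchain and H2-K1 completed the first 15, down to 0.16. Spots of an area share a library and their levels share a total, so these r values are descriptions. Ccl21a itself was higher in the interior (0.53, adjusted p = 0.0102, edgeR), as 1 of 5 T-zone stroma genes, while Ccl19 had 0.30 (adjusted p = 0.117). Ccl21a had 12.2 per 10000 on WT, 4.20 on Early, 9.63 on Advanced 1 and 9.83 on Advanced 2, low on the Early area as the receptor genes were, and was 1.13 higher in Advanced than Early (adjusted p = 6.95e-10, edgeR). Ccl19 and Ccl21a have near-identical copies in the mouse genome, so their counts are uncertain.

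To see which members follow which neighbours, interior spots of at least 1000 UMIs were split by the level of a marker list that holds no member, a choice made after the data had been seen and described without a test. In the 25% of spots richest in T-zone stroma genes, the 5 CD3 and receptor constant genes had 14.5 per 10000 against 7.46 in the other spots on WT, 5.52 against 4.43 on Early, 6.59 against 5.62 on Advanced 1 and 10.8 against 5.63 on Advanced 2. Cd8a and Cd8b1 together had 2.50 against 1.78, 2.08 against 1.47, 2.60 against 1.80 and 2.21 against 1.27. Both groups had higher values in the stroma-rich spots on 4 of 4 areas, with intervals apart on WT and Advanced 2 for the first and on both Advanced areas for the CD8 genes, and overlapping otherwise. The stroma list holds Ccl21a, Cxcl12 and Ccl19, which were already among the genes most like the summed members in spots of this depth. The split therefore restates those correlations and is not separate evidence. Cd4 did not share this, with 1.19 against 0.660 on WT but 2.49 against 2.57 on Early, 1.63 against 1.62 on Advanced 1 and 1.89 against 2.46 on Advanced 2. Taken singly, Cd8a was lower in the stroma-rich spots of Early (0.664 against 0.901, intervals overlapping), where Cd8b1 was higher (1.41 against 0.570). On the other areas both CD8 genes were higher. Lef1 and Tcf7 together were lower on Advanced 1 (0.665 against 0.807, intervals overlapping) and higher on the other areas.

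The same spots were also split by a macrophage list. In the 25% of spots richest in macrophage genes Cd4 had 1.07 per 10000 against 0.710 in the other spots on WT, 3.40 against 2.03 on Early, 2.40 against 1.30 on Advanced 1 and 3.51 against 1.86 on Advanced 2. The intervals lay apart on the 3 TNF-Tg areas and overlapped on WT, where the value rests on 9 UMIs. Cd8a and Cd8b1 together had 1.78 against 2.08, 1.51 against 1.66, 1.80 against 2.06 and 1.13 against 1.65, with overlapping intervals on all 4 areas. Taken singly, Cd8b1 was higher in the macrophage-rich spots of Advanced 1 (1.06 against 0.935) and Cd8a equal on WT (1.07 against 1.07). The 5 CD3 and receptor constant genes had 3.68 against 12.1, 4.13 against 4.99, 6.33 against 5.63 and 4.38 against 7.91, with intervals apart on WT and Advanced 2. On WT the macrophage-rich group is only 21 spots. Its median depth was 1855 UMIs against 2099 in the other spots on WT, 5286 against 2488 on Early, 3699 against 2289.5 on Advanced 1 and 2624 against 1944 on Advanced 2, so depth differed with the split. Whether Cd4 UMIs in these spots came from T-cells or from macrophages cannot be told apart in spots that hold several cells. Splits by B-cell and by fat and capsule genes were also made. In B-cell-rich spots the 5 CD3 and receptor genes had 12.0 against 9.01, 2.79 against 5.14, 5.05 against 6.04 and 5.50 against 7.34. In spots rich in fat and capsule genes they had 10.0 against 9.38, 5.32 against 4.39, 5.35 against 6.02 and 6.55 against 7.07. There the CD8 genes had 1.78 against 2.07, 2.15 against 1.38, 1.66 against 2.10 and 1.66 against 1.46, with intervals apart on Early alone.

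**Figure D5:**
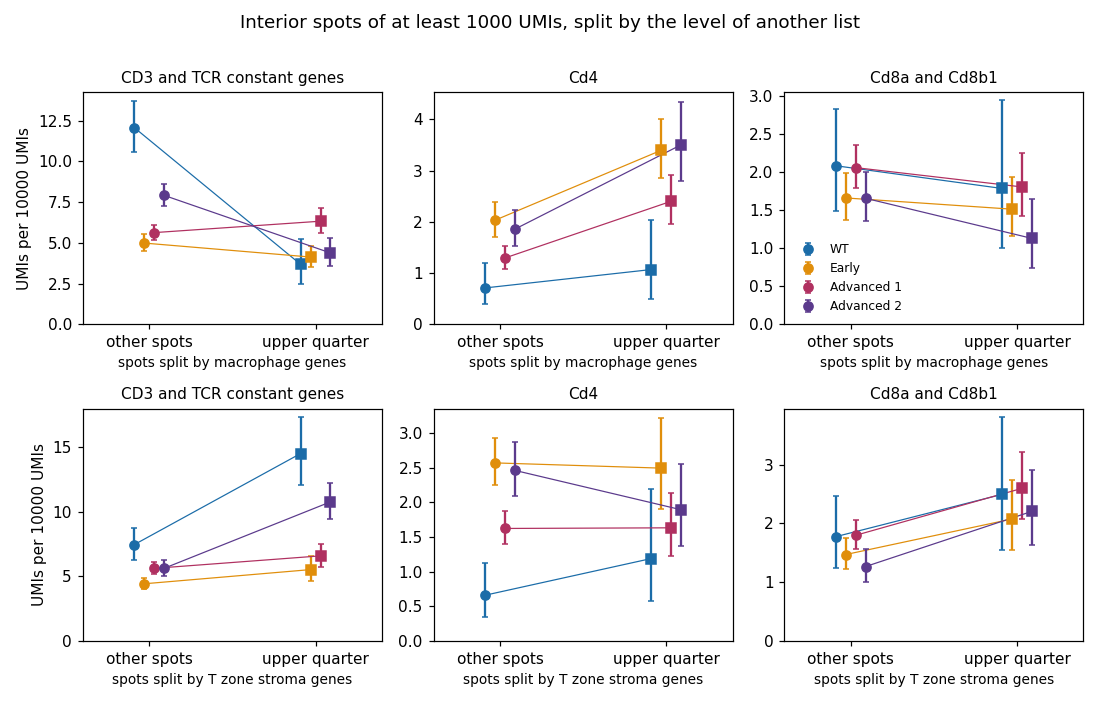
UMIs per 10000 (vertical axes from 0) in interior spots of at least 1000 UMIs, split into the 25% richest in a marker list and the other spots on each of the 4 areas, with exact Poisson 95% intervals. Cd4 intervals in the macrophage-rich and the other spots lie apart on the 3 TNF-Tg areas (3.51 against 1.86 on Advanced 2) and overlap on WT (1.07 against 0.710), and those of the CD8 genes overlap on all 4 areas.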

How the data were processed

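Per the labels and the submitters' processing notes, the authors ran Space Ranger 1.1.0 on mm10 (GRCm38) to obtain UMI counts, kept spots under tissue, and deposited raw counts, 1 matrix per capture area. Seurat 4.0.3 and R 4.1.1 are also named there, for steps not used here. The deposited counts were summed per area over rim spots (tissue on fewer than 6 of 6 sides), interior spots, and spots under or over 1000 UMIs. Sums were tested with edgeR 4.0.16 in R 4.3.3 (filterByExpr with a minimum count of 10, TMM, quasi-likelihood test, Benjamini-Hochberg over all genes tested, threshold 0.05), with the area as a block for position and depth and WT, Early and Advanced as groups for stage. The code was tested on simulated data. The labels give 1 section per area, so p-values measure the spread between areas, which edgeR moderates towards a value shared by all genes. No doublet filter applies to spots. Shares have exact binomial intervals. The alternatives were DESeq2 1.42.0, no filter, no block, a 2-ring rim, other depth thresholds, leaving out each area, and fits without immunoglobulin, hemoglobin and mitochondrial genes.

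The members, tests and lists (T-cell lists, B-cell, plasma cell, macrophage, dendritic cell, neutrophil, lymphatic endothelial, fat and capsule, red cell and T-zone stroma genes) were chosen with earlier results of these data known. All 10 members are named, of each list at most the 4 genes with the largest differences that passed, plus Trbc1, Cd247, Cd6, Ccr7, Il7r, Ccl21a and Ccl19, and the 15 genes most like the summed members. One further gene that this rule names is not reported here.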

Additional observations from a re-analysis of the deposited data

Results flagged for a closer look

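Both results below come from the log2 ratio of the interior level to the rim level of a gene, taken on each area, and stand out because the areas of 1 group lay on one side of 0 and those of another group on the opposite side.

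For Cd3d, a CD3 chain, the ratio was -0.25 on the WT area, -0.37 on Early, 0.40 on Advanced 1 and 0.60 on Advanced 2. The Advanced mean exceeded WT by 0.74 and Early by 0.86. The difference between Advanced and Early was not tested. That between the 3 TNF-Tg areas and WT was 0.48 (SE 0.34, adjusted p = 0.675, edgeR's quasi-likelihood test) and did not pass.

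For Cd4, the helper coreceptor, the ratio was below 0 on the WT area and above 0 on each TNF-Tg area. Early exceeded WT by 1.44 and the Advanced mean exceeded WT by 1.05. The edgeR test of the TNF-Tg areas against WT, added after the data had been seen, gave 1.19 (SE 0.31, adjusted p = 0.134). With 1 area for WT, the spread behind this test is that of the TNF-Tg areas alone.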

How the results depend on the processing

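Over all alternatives, 919 of 1052 member differences kept their direction and their side of the threshold, or moved by under 1 standard error where untested. The causes of the changes below were not tested. No paired analysis between groups was possible because the areas of different groups hold different mice. The area block stands in its place where both regions lie on every area.

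The number of the 10 members called moved as follows. With DESeq2 it was 1 instead of 4 for shallow against deep interior spots, 0 instead of 2 for Advanced against WT and 0 instead of 1 for Advanced against WT in the rim. Without the area block it was 0 instead of 5 for rim to interior over all spots, 0 instead of 3 for rim to interior in deep spots, 0 instead of 2 for rim to interior in shallow spots, 2 instead of 4 for shallow against deep spots and 2 instead of 4 for shallow against deep interior spots. With a rim of 2 rings it was 2 instead of 1 for Advanced against WT in the rim. Without a filter it was 4 instead of 2 for rim to interior in shallow spots and 3 instead of 1 for Advanced against WT in the rim. With a depth threshold of 500 UMIs it was 0 instead of 2 for rim to interior in shallow spots and 1 instead of 0 for the interaction of position and depth. In deep spots only it was 1 instead of 0 for Advanced against WT in the interior. In shallow spots only it was 0 instead of 2 for Advanced against WT and 0 instead of 1 for Advanced against WT in the rim. With only the 2 groups compared it was 2 instead of 1 for Advanced against WT in the rim. Without immunoglobulin, hemoglobin and mitochondrial genes it was 2 instead of 1 for Advanced against WT in the rim. Leaving out 1 area at a time, the number of members called spanned 3 to 6 for rim to interior over all spots, 0 to 4 for rim to interior in deep spots, 0 to 1 for rim to interior in shallow spots and 0 to 1 for the TNF-Tg against WT difference of interior over rim.

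The number of all genes called moved more. With DESeq2 it was 421 instead of 884 for rim to interior over all spots, 217 instead of 441 for rim to interior in deep spots, 1382 instead of 2190 for shallow against deep spots, 650 instead of 1357 for shallow against deep interior spots, 2 instead of 0 for the interaction of position and depth, 7 instead of 152 for Advanced against Early, 33 instead of 272 for Advanced against WT, 1 instead of 36 for Advanced against Early in the interior, 1 instead of 40 for Advanced against WT in the interior, 11 instead of 18 for Advanced against Early in the rim, 39 instead of 126 for Advanced against WT in the rim and 13 instead of 29 for the TNF-Tg against WT difference of interior over rim. Without the area block it was 159 instead of 884 for rim to interior over all spots, 10 instead of 441 for rim to interior in deep spots and 5 instead of 34 for rim to interior in shallow spots. With a rim of 2 rings it was 478 instead of 884 for rim to interior over all spots, 261 instead of 441 for rim to interior in deep spots, 844 instead of 1357 for shallow against deep interior spots, 0 instead of 36 for Advanced against Early in the interior, 4 instead of 40 for Advanced against WT in the interior, 71 instead of 18 for Advanced against Early in the rim, 257 instead of 126 for Advanced against WT in the rim and 46 instead of 29 for the TNF-Tg against WT difference of interior over rim. Without a filter it was 59 instead of 34 for rim to interior in shallow spots, 30 instead of 0 for the interaction of position and depth, 88 instead of 18 for Advanced against Early in the rim, 317 instead of 126 for Advanced against WT in the rim and 48 instead of 29 for the TNF-Tg against WT difference of interior over rim. With a depth threshold of 500 UMIs it was 16 instead of 34 for rim to interior in shallow spots and 24 instead of 0 for the interaction of position and depth. With a depth threshold of 2000 UMIs it was 110 instead of 34 for rim to interior in shallow spots. In deep spots only it was 91 instead of 152 for Advanced against Early and 16 instead of 29 for the TNF-Tg against WT difference of interior over rim. In shallow spots only it was 3 instead of 152 for Advanced against Early, 2 instead of 272 for Advanced against WT, 10 instead of 36 for Advanced against Early in the interior, 4 instead of 40 for Advanced against WT in the interior, 2 instead of 18 for Advanced against Early in the rim and 6 instead of 126 for Advanced against WT in the rim. With only the 2 groups compared it was 30 instead of 18 for Advanced against Early in the rim. Leaving out 1 area at a time, it spanned 279 to 1136 for rim to interior over all spots, 74 to 661 for rim to interior in deep spots, 0 to 75 for rim to interior in shallow spots, 849 to 1261 for shallow against deep interior spots, 0 to 8 for the interaction of position and depth and 12 to 114 for the TNF-Tg against WT difference of interior over rim.

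The Cd4 share on WT, Early, Advanced 1 and Advanced 2 was 17.9%, 35.8%, 33.0% and 47.5% in shallow spots only and 58.2%, 75.9%, 63.7% and 76.3% of Cd4 and Cd8b1 without Cd8a. Some log2 differences that had not passed changed sign. With a depth threshold of 2000 UMIs these were Cd3d 0.031 and Cd8b1 -0.044 for shallow against deep spots, Trbc2 0.068, Cd8b1 -0.055 and Tcf7 0.10 for shallow against deep interior spots. Without a filter these were Cd8b1 -0.035 for shallow against deep interior spots. With a depth threshold of 500 UMIs these were Cd8b1 -0.070 and Tcf7 0.28 for shallow against deep interior spots. With a rim of 2 rings these were Trbc2 0.059, Cd8b1 -0.079 and Tcf7 0.069 for shallow against deep interior spots, Cd3e -0.061, Cd3g -0.038, Trbc2 -0.20, Cd8a -0.087 and Cd8b1 -0.35 for Advanced against Early in the interior, Trbc2 0.073 and Cd8a 0.092 for Advanced against Early in the rim. In shallow spots only these were Cd3g -0.26, Trbc2 -0.038, Cd4 0.35, Cd8b1 -0.024 and Lef1 -0.017 for Advanced against Early, Cd3g -0.44, Trbc2 -0.12, Cd4 0.24, Cd8a -0.0029 and Cd8b1 -0.15 for Advanced against Early in the interior. In deep spots only these were Tcf7 0.033 for Advanced against Early in the interior, Cd3d 0.020 for Advanced against WT in the interior. Leaving out 1 area, log2 differences spanned 0 for Cd3d -0.14 to 0.23 in rim to interior over all spots, Cd3d -0.089 to 0.28 in rim to interior in deep spots, Cd8b1 -0.075 to 0.20, Cd3d -0.38 to 0.035, Tcf7 -0.33 to 0.29 and Trbc2 -0.14 to 0.045 in shallow against deep interior spots. DESeq2 gave no adjusted p for 6 of the 10 members from rim to interior in deep spots (Cd8a and Tcf7 among them), for both tested members in shallow spots and for any member in the TNF-Tg against WT comparison, so no member count is given there. Depth limits the rest. Shallow rim spots held 0 to 8 UMIs of a member per area, WT and Early had 1 section each, and leaving out an Advanced area left no residual degree of freedom between stages, so each Advanced area is given there by its own level.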

Other observations

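Some lists of other cell types have not yet been described from rim to interior. Of 9 B-cell genes 4 were lower in the interior (median -0.29), namely Ms4a1 and Cr2 (both -0.56), Cd79b (-0.55) and Cd79a (-0.42), and of 9 macrophage genes Siglec1 (-0.59), a receptor of sinus macrophages, was lower. Of 8 dendritic cell genes Itgax was higher (0.75). Of 5 lymphatic endothelial genes 1 was higher, namely Ccl21a, which is also in the T-zone stroma list and was given above. Fat and capsule genes were lower inside for 5 of 8 (median -0.83, Adipoq -2.97) and hemoglobin genes for 4 of 4 (median -2.01), while 0 of 5 plasma cell genes (median 0.04) and 0 of 5 neutrophil genes (median -0.10) passed with edgeR.

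Mouse Tnf had 18 UMIs on the WT area (0.0995 per 10000), 116 on Early (0.224), 79 on Advanced 1 (0.234) and 57 on Advanced 2 (0.178). The listed reporter features Tdtomato and EGFP had 0 UMIs on all 4 areas. In spots of at least 1000 UMIs of the interior, thinned to 1000 UMIs each, the variance of the summed CD3 and receptor constant UMIs over their mean was 1.08 on WT, 1.07 on Early, 1.30 on Advanced 1 and 1.37 on Advanced 2, where counting alone gives about 1.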
